A study of Ciona robusta with 6 samples.

Results

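The neural plate and neuron regulators described here are 7 gene models of Ciona robusta, an ascidian tunicate, out of 15284 models measured by RNA-seq in whole embryos. They were chosen by identifier, with no measured value in the rule but with earlier results of these data known: Otx (KH.C4.84), Msx (KH.C2.957), Pax3/7 (KH.C10.150), Sox1/2/3 (KH.C1.99), Neurog (KH.C6.129), Ebf (KH.L24.10) and Delta.b (KH.L50.6). All 7 were present in the table, and all 7 passed the filter on low values. The table itself pairs no identifier with a name, so these names rest on what is generally known of the KH models and could not be checked against the files.

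Every embryo came from an unfertilized egg that received Cas9 protein with a crRNA and a tracrRNA and was then fertilized. In CrBra the guide was directed at Brachyury, the T-box transcription factor of the notochord. In CrGFP, the control, it was directed at GFP, which is not a gene of this animal, so all embryos carried Cas9 and a guide. Embryos were raised at 21 degrees Celsius in artificial seawater to Hotta stage 14, a neurula stage, and pools of 50 to 85 whole embryos were lysed, with 3 replicates per guide. Each library is thus the sum over all tissues of many embryos, and neither the edited share of cells nor the editing of single embryos was measured here. The labels give no strain or parentage.

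In ascidian embryos part of the notochord and the posterior part of the neural plate, which includes nerve cord cells, descend from common mother cells. FGF signalling separates the daughter lineages, and Brachyury is switched on in the notochord daughter. Other parts of the nervous system come from an anterior plate that contributes to the brain and its pigmented sense organs, and from lateral rows at the border between plate and epidermis. Otx is a homeodomain factor of the anterior plate and of early neural induction. Msx and Pax3/7 are homeodomain factors of the plate border and the dorsal nerve cord. Sox1/2/3 is an HMG-box factor of the SoxB1 type, found in neural and epidermal precursors. Neurog is a proneural bHLH factor, Ebf is a factor of the COE type that acts in differentiating neurons, and Delta.b is a Notch ligand. Of these genes, Otx is also active in anterior endoderm, and Ebf also acts in the precursors of pharyngeal muscle. The comparison of guides asks whether these neural transcripts differed when Brachyury was targeted.

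The libraries held 13191537 to 16094085 reads, and the 7 models together took 0.0469% to 0.0625% of the reads of a library. Levels below are normalised read counts, that is, each library's counts after the authors' division by a library factor. The guide labels were checked with KH.S1404.1, which is taken as Brachyury on the same footing as the names above. Its normalised count was 950 in CrGFP replicate 1, 582 in replicate 2 and 1058 in replicate 3, against 298, 205 and 313 with the Brachyury guide. The groups did not overlap, and the CrBra library kept 31.4%, 35.3% and 29.6% of its control in pairs 1, 2 and 3. On the log2 scale CrBra differed by -1.64, with an adjusted p of 0.608 in limma without the replicate number as a block and of 8.89e-05 with it. In bulk RNA, fewer cells of a type and less RNA per cell cannot be told apart.

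None of the 7 neural regulators passed the test of CrBra against CrGFP. In limma, 0 of 7 passed an adjusted p under 0.05 without the replicate block (adjusted p = 0.999999 for each), where 0% of the 11953 tested models were called. With the block 0 of 7 passed as well (adjusted p = 0.999 for each), where 0.402% were called. At an unadjusted p under 0.05 the count was also 0 of 7 in both limma fits, against 0.502% of all tested models without the block and 4.77% with it. DESeq2 called 0 of 7 without the block, where it called 0.176% of all tested models, and 0 of 7 with it, where it called 0.485%. In blocked edgeR and blocked limma-voom 1 of 7, Delta.b, had an unadjusted p under 0.05 (0.0438 and 0.0382), as did 4.78% and 4.92% of all tested models. It passed in neither after adjustment (adjusted p = 0.999 and 0.957).

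Over the 7, log2 fold changes had a median of 0.10 and ran from -0.010 to 0.25, and the median of all tested models was 0.0061. Of the 7, 6 had a fold change above 0 and 1 below it, and 53% of all tested models had one above 0. The CrBra and CrGFP values overlapped in all 7, and over all tested models they did not overlap in 1.78%.

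**Figure D1:**
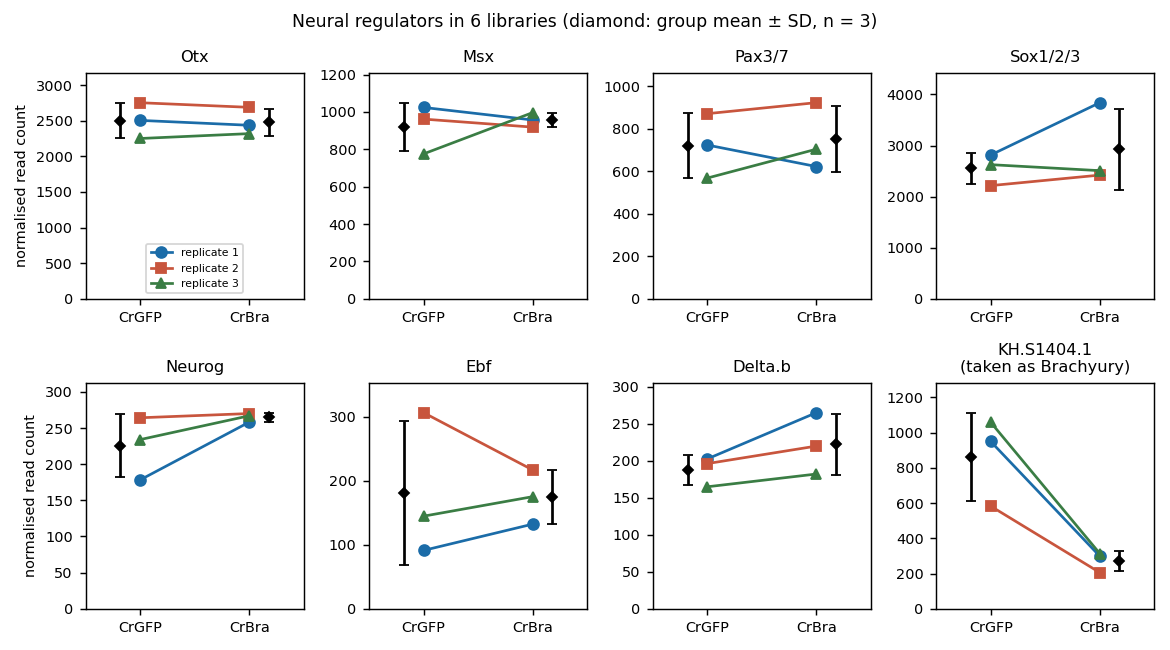
Normalised read count (y axes, from 0) of the 7 neural regulators and of the model taken as Brachyury in CrGFP and CrBra libraries (x axes). Lines join the libraries of the same replicate number, and diamonds with bars give the group mean and SD (n = 3). KH.S1404.1 falls in every pair, from 582 to 1058 in CrGFP to 205 to 313 in CrBra. The CrBra and CrGFP values of each neural regulator overlap, and over all tested models they did not overlap in only 1.78%. Among the 7, only Neurog and Delta.b have 3 lines that go the same way, upward, and 12.4% of all tested models were higher in all 3 pairs.

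Otx had the closest values of the 7. Its normalised count was 2506, 2754 and 2251 in the controls with numbers 1, 2 and 3 and 2437, 2689 and 2320 in the CrBra libraries with those numbers. Both replicate 2 libraries were high and both replicate 3 libraries low, whichever guide they had received. CrGFP had a mean of 2503 ± 251 (SD, n = 3) and CrBra one of 2482 ± 189 (SD, n = 3). The CrBra library held 97.3%, 97.7% and 103% of its control in pairs 1, 2 and 3. The fold change on the log2 scale was -0.010, and the 95% interval ran from -0.32 to 0.30 without the block and from -0.12 to 0.10 with it. The blocked interval corresponds to folds of 0.92 to 1.07, and 90.2% of all tested models had a larger difference in either direction.

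Msx lay at 1024, 962 and 775 in the controls, in the order of their numbers, and at 957, 919 and 997 in CrBra. The 3 CrBra values lay within the range of the controls, and CrGFP replicate 3 was the lowest library. CrGFP averaged 920 ± 129 (SD, n = 3) and CrBra 957 ± 39.0 (SD, n = 3). In pairs 1 and 2 the CrBra library held 93.4% and 95.5% of its control, and in pair 3 it held 129%. Its log2 fold change was 0.066, with a blocked 95% interval from -0.14 to 0.27.

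Pax3/7, like Msx a gene of the plate border, lay at 724, 871 and 568 in the controls and at 622, 923 and 704 in CrBra. Replicate 2 was the highest library with either guide. CrGFP averaged 721 ± 152 (SD, n = 3) and CrBra 750 ± 156 (SD, n = 3). In pair 1 the ratio of CrBra to CrGFP was 0.86, in pair 2 it was 1.06 and in pair 3 it was 1.24. Its log2 fold change was 0.059, with a blocked 95% interval from -0.16 to 0.28.

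Sox1/2/3 lay at 2815, 2215 and 2626 in the controls and at 3840, 2421 and 2508 in CrBra. CrBra replicate 1 stood above the other 5 libraries, which overlapped. CrGFP averaged 2552 ± 307 (SD, n = 3) and CrBra 2923 ± 795 (SD, n = 3). The pairs had ratios of 1.36, 1.09 and 0.96. CrBra differed by 0.17 on the log2 scale, with a blocked 95% interval from -0.029 to 0.37. Without replicate 1 the blocked value was 0.031.

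The neurogenic members, Neurog, Ebf and Delta.b, were measured with fewer reads, from 94 to 313 per library. Neurog, the proneural factor, lay at 178, 264 and 234 in the controls and at 258, 270 and 267 in CrBra. CrGFP replicate 1 was the lowest library, and the CrBra libraries lay close together at the upper end of the range. CrGFP averaged 226 ± 43.6 (SD, n = 3) and CrBra 265 ± 6.16 (SD, n = 3). Each CrBra library was above its control, with ratios of 1.45, 1.02 and 1.14 for pairs 1, 2 and 3. Its log2 fold change was 0.25, the highest of the 7, with a 95% interval from -0.24 to 0.74 without the block and from -0.0099 to 0.51 with it. Without replicate 1 the blocked value was 0.11.

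Ebf was the most variable of the 7. It lay at 91.1, 306 and 145 in the controls and at 132, 217 and 175 in CrBra. The replicate 2 libraries were high and the replicate 1 libraries low with both guides. CrGFP averaged 181 ± 112 (SD, n = 3) and CrBra 175 ± 42.2 (SD, n = 3). For pairs 1, 2 and 3 the ratio was 1.45, 0.71 and 1.21, so the pairs went in different directions. The difference was 0.10 on the log2 scale, although the mean count was slightly lower in CrBra. Its blocked 95% interval, from -0.32 to 0.52, was the widest of the 7. In 3 of the 6 edgeR, DESeq2 and limma-voom fits on recovered reads the sign turned. The difference was -0.048 in edgeR and -0.049 in DESeq2 without the block and -0.012 in blocked limma-voom. It stayed positive in blocked edgeR (0.049), blocked DESeq2 (0.087) and limma-voom without the block (0.095). Limma on recovered reads after TMM or upper-quartile scaling gave 0.10, with or without the block.

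Delta.b, the Notch ligand, lay at 202, 196 and 165 in the controls and at 265, 220 and 182 in CrBra. CrBra replicate 1 was the highest library, and CrBra replicate 3 lay below 2 of the 3 controls. CrGFP averaged 188 ± 20.2 (SD, n = 3) and CrBra 222 ± 41.5 (SD, n = 3). Each CrBra library was above its control, with ratios of 1.31, 1.12 and 1.10 for pairs 1, 2 and 3. On the log2 scale the difference was 0.23, with a 95% interval from -0.29 to 0.75 without the block and from -0.0031 to 0.47 with it. The unadjusted p of Delta.b and of Neurog in blocked limma was 0.0524 and 0.0574.

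**Figure D2:**
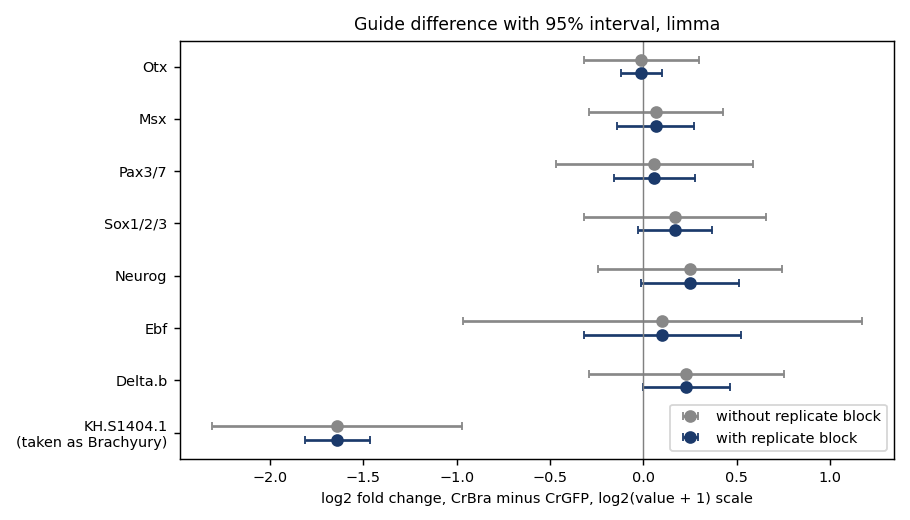
Log2 fold change of CrBra minus CrGFP (x axis, log2(value + 1) scale) for each neural regulator and the model taken as Brachyury (y axis), with its 95% interval in limma without the replicate block (grey) and with it (dark). All 7 neural intervals include 0 in both fits, and those of KH.S1404.1 do not; the blocked lower bounds of Neurog (-0.0099) and Delta.b (-0.0031) lie just below 0.

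Neurog and Delta.b were the only members higher in CrBra in all 3 pairs, 2 of 7, and 12.4% of all tested models were higher in all 3. No member was lower in all 3 pairs, and 11.1% of all tested models were. The blocked 95% intervals bound the folds: the highest upper bound of the 7 was 1.44 and the lowest lower bound 0.80, both of Ebf. These intervals are for single genes and are not adjusted for the number of genes. For KH.S1404.1 the blocked interval ran from a fold of 0.28 to 0.36.

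The ratios within pairs were set against counting error, with exact binomial 95% intervals on the recovered reads. In pair 1 the interval excluded a ratio of 1 in 5 of the 7 members, and in 29.5% of all tested models. Of these members, 4 were above 1: Sox1/2/3 (ratio 1.36, interval 1.30 to 1.43, from 2905 CrGFP and 4535 CrBra reads), Neurog (1.45, 1.20 to 1.75), Ebf (1.45, 1.12 to 1.89) and Delta.b (1.31, 1.10 to 1.57). The fifth, Pax3/7, was below 1 (0.86, interval 0.78 to 0.95). Otx and Msx had pair 1 ratios of 0.97 and 0.93, with intervals that included 1. In pair 1, then, the 3 neurogenic members and Sox1/2/3 were above their controls, and the 3 homeodomain genes Otx, Msx and Pax3/7 were below theirs. This grouping was seen in the values and was not tested.

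The pair 1 ratios of the upper 4 were high among all models too. Ranked by the difference of log2(value + 1) in pair 1, only 3.30% of all tested models lay above Neurog. For Ebf, Sox1/2/3 and Delta.b the share was 3.33%, 4.61% and 5.89%. The other pairs did not show this split. In pair 2 the interval excluded 1 in 2 of the 7 members, Sox1/2/3 (1.09, interval 1.03 to 1.16) and Ebf (0.71, interval 0.59 to 0.85), and in 17% of all tested models. In pair 3 it excluded 1 in 2 of the 7, Msx (1.29, interval 1.17 to 1.41) and Pax3/7 (1.24, interval 1.11 to 1.39), and in 18.5% of all tested models. Msx and Pax3/7, below their controls in pair 1, had the highest ratios in pair 3. Intervals of this kind cover counting error only, and differences between pools of embryos add to them.

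**Figure D3:**
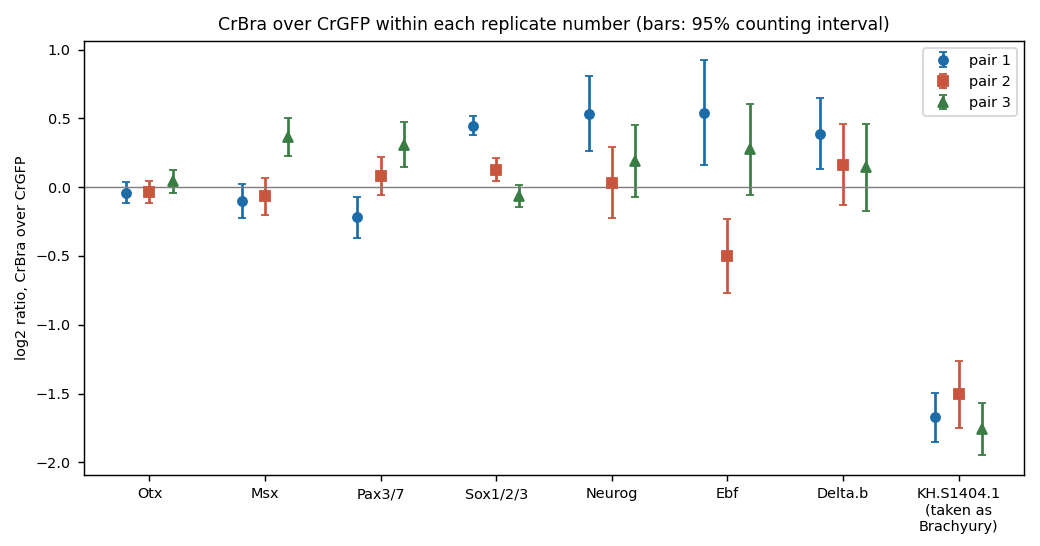
Log2 ratio of CrBra over CrGFP (y axis) within replicate pairs 1 (circles), 2 (squares) and 3 (triangles) for each neural regulator and the model taken as Brachyury (x axis), with 95% counting intervals as bars. Neurog, Ebf, Sox1/2/3 and Delta.b lie above 0 in pair 1, Ebf lies below it in pair 2, and KH.S1404.1 lies between -1.76 and -1.50 in all 3 pairs.

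The range of the 3 replicate-number means, highest minus lowest, was larger than the guide difference in all 7 members, and in 96.8% of all tested models. A range over 3 means tends to exceed a difference between the guide means, so these sizes are not compared like for like. In a limma F test of the replicate number with the guide as a covariate, 5 of 7 members passed an adjusted p under 0.05, and 73.4% of all tested models did. The labels give these numbers and do not say what libraries of a number share. The median range of the 3 number means was 0.42 on the log2 scale over the 7 and 0.56 over all tested models.

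Ebf differed most, with means of 112, 261 and 160 for numbers 1, 2 and 3, a 2.33-fold range (adjusted p = 0.00412). Only 14.6% of all tested models had a larger range. Sox1/2/3 was highest in number 1, with means of 3327, 2318 and 2567 (a 1.42-fold range, adjusted p = 0.00708). Pax3/7 was highest in number 2, with means of 673, 897 and 636 (a 1.42-fold range, adjusted p = 0.00903). Otx had the same order, with 2471, 2721 and 2285 (a 1.19-fold range, adjusted p = 0.013).

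Delta.b had means of 234, 208 and 173 (a 1.34-fold range, adjusted p = 0.0398). Neurog, with 218, 267 and 251 (adjusted p = 0.151), and Msx, with 990, 940 and 886 (adjusted p = 0.379), did not pass. The neurogenic genes did not share an order: Ebf and Neurog were lowest in number 1, and Delta.b was highest there. Several of these calls were lost when 1 library was left out. Such a fit has only 1 residual degree of freedom, so a lost call does not show that it rested on that library. The log2 range of Pax3/7, 0.50 with all libraries, was 0.52 without CrGFP replicate 2 and 0.48 without CrBra replicate 2. In the F test without 1 library, the count of 5 fell to 2 without CrGFP replicate 2 or CrBra replicate 2 and to 3 without CrGFP replicate 3. The calls of Ebf and Sox1/2/3 held without any single library, but their log2 ranges moved. That of Ebf, 1.22 with all libraries, was 0.77 without CrGFP replicate 2. That of Sox1/2/3, 0.51 with all libraries, was 0.30 without CrBra replicate 1. The call of Delta.b was lost without CrGFP replicate 2 or 3 or CrBra replicate 1, 2 or 3 (adjusted p = 0.0659 to 0.186). That of Otx was lost without CrGFP replicate 2 or 3 or CrBra replicate 2 (adjusted p = 0.0594 to 0.151). That of Pax3/7 was lost without CrGFP or CrBra replicate 2 (adjusted p = 0.0724 and 0.0945). Neurog passed without CrBra replicate 1 (adjusted p = 0.0219) and Msx without CrBra replicate 3 (adjusted p = 0.0086).

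**Figure D4:**
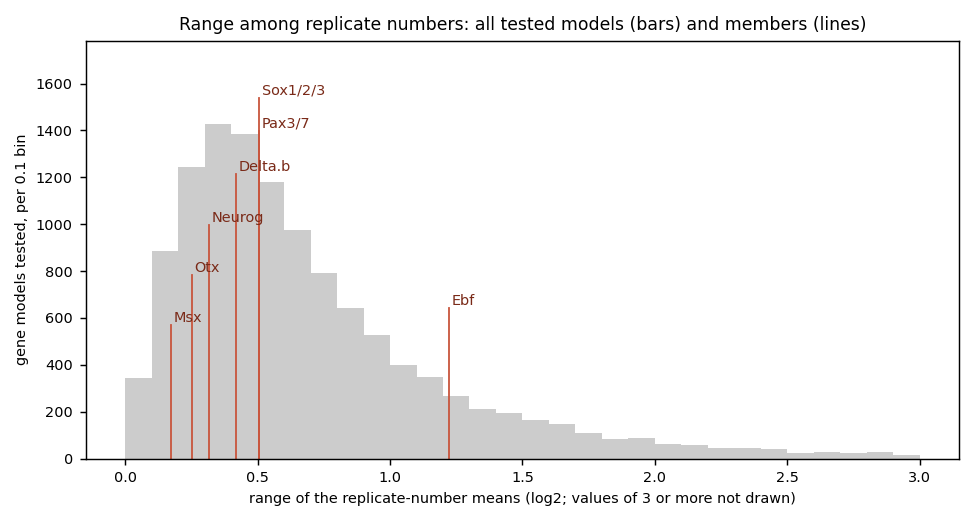
Range of the 3 replicate-number means on the log2 scale (x axis) for all tested gene models, as a histogram of models per 0.1 bin (y axis), with the 7 neural regulators as labelled lines whose height carries no value. Ebf lies at 1.22, and the other 6 lie between 0.17 and 0.51, below the median of all tested models (0.56).

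The likeness of each member to other tested models was described by Pearson's r of log2(value + 1) over the 6 libraries, which fall into 3 pairs and are not 6 independent points. The most similar models were KH.C3.96 for Otx (r = 0.997), KH.C2.421 for Sox1/2/3 (r = 0.997), KH.C7.559 for Ebf (r = 0.996) and KH.C7.335 for Pax3/7 (r = 0.993). Those for Delta.b, Neurog and Msx were KH.C4.316 (r = 0.989), KH.L117.4 (r = 0.977) and KH.L84.27 (r = 0.977). Of the 11953 tested models, 287 reached an r of at least 0.95 for Otx, 121 for Pax3/7, 59 for Sox1/2/3 and 56 for Ebf. How many a typical tested model has was not computed. For Delta.b, Neurog and Msx it was reached by 15, 10 and 2 models. Within the 7, the most similar pair was Otx and Pax3/7 (r = 0.898), followed by Neurog and Ebf (r = 0.779). The files used here give none of these other models a name.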

How the data were processed

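Libraries of 3 CrBra and 3 CrGFP samples were grouped by title. Per the labels' protocols the library kit kept the strand. TopHat2 2.9.8b and DESeq 1.8.1 are named in the submitters' processing notes. Which tool counted the reads, with which strand setting and on which genome build, is not given in the sources used here, so reads of overlapping or antisense genes cannot be told apart. Per the file headers, the authors deposited a normalised signal (counts divided to library size) and regularized log2 values of the same counts, for 15284 models with KH2012 identifiers. All values of the first block were whole multiples of 1 read within 0.01 reads (100% in each library), so whole reads were recovered. A count of 0 in a library allows up to 3 reads.

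The filter on low values asked for 10 or more in 3 or more libraries, which 11953 models met and 3331 did not. The main test was limma 3.58.1 with a mean-variance trend on log2(value + 1) in R 4.3.3, two-sided, with Benjamini-Hochberg adjustment over all tested models and a threshold of 0.05; fold changes are on that scale, which understates the change of low models. The design held edgeR's quasi-likelihood test for raw counts, and the values were not raw counts. The other fit had the replicate number as a block. Between same-number libraries, deviations from the group mean had correlations of 0.86, 0.88 and 0.82, all above the limit of 0.1. The numbers were therefore treated as pairing the libraries in the blocked fit and in the within-pair ratios. The main test, planned without a block, did not use this pairing. Differences among numbers were tested with limma's moderated F test. Alternatives were edgeR 4.0.16, DESeq2 1.42.0 and limma-voom on the recovered reads, TMM or upper-quartile scaling, other pseudocounts, no filter, the regularized log2 values, and leaving out libraries or pairs. Limma with and without the block and blocked edgeR were also run on simulated data, and the other fits were not.

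The 7 members, the lists and the tests were chosen with earlier results of these data known. The text names the 7 members, the model taken as Brachyury and, for each member, the 1 tested model most like it. Of the identifiers, 0 of 15284 matched the RefSeq gene table (assembly ASM961781v2), and 0 of the 26 other neural genes looked for, and 0 of the 7 member names, were found in it. Other neural genes, gene lengths, positions and sequences were therefore not analysed here, and levels are not compared between genes.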

Additional observations from a re-analysis of the deposited data

How the results depend on the processing

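The count of members called between guides was 0 in the main fit and in all 28 alternatives, those with the replicate block included, and the adjusted p of a member was never below 0.166 (Sox1/2/3, replicate block, without replicate 3). Fits on 2 pairs have only 1 residual degree of freedom. Apart from fits that left out libraries, the direction turned only for Ebf, to -0.048 in edgeR, -0.049 in DESeq2 and -0.012 in blocked limma-voom; the cause was not tested. Without single libraries, and with the block without each pair, the log2 fold change ran from -0.085 to 0.061 and -0.037 to 0.0045 (0.0016 without replicate 2) for Otx, -0.053 to 0.15 and -0.082 to 0.15 for Msx, -0.10 to 0.21 and -0.067 to 0.20 for Pax3/7, -0.043 to 0.29 and 0.031 to 0.29 for Sox1/2/3, and -0.30 to 0.57 and -0.11 to 0.40 for Ebf. For Neurog it ran from 0.092 to 0.37 and 0.11 to 0.36, and for Delta.b from 0.097 to 0.37 and 0.15 to 0.28.

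The model taken as Brachyury (KH.S1404.1) passed with the replicate block, at -1.64 in limma, -1.65 in edgeR and DESeq2, -1.66 in limma-voom, -1.64 after either rescaling, with a pseudocount of 0.5 or with no filter, -1.63 with a pseudocount of 5 and -0.91 on the shrunken regularized log values. Without the block it passed only in DESeq2 (-1.66), and it did not pass in the fits without single libraries. It ran from -1.90 to -1.45 without single libraries and from -1.71 to -1.58 without each pair. The count of all models called was 0 in the main fit and 48 with the replicate block. It was 21 in DESeq2 without the block. With the block it was 57 in edgeR, 58 in DESeq2, 54 in limma-voom, 46 after TMM or upper-quartile scaling and with a pseudocount of 0.5, 54 with a pseudocount of 5, 27 with no filter, 53 on the regularized log values and 25 to 100 without each pair (88 without replicate 1); without single libraries and the block it was 0.

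For differences among numbers, leaving out libraries and the rescaling of within-pair ratios were alternatives chosen after seeing the data. The count of 5 members was kept under other pseudocounts and scalings and on the regularized log values and ran from 2 to 5 without single libraries. The log2 range among numbers then ran from 0.21 to 0.29 for Otx, 0.096 to 0.39 for Msx, 0.42 to 0.69 for Pax3/7, 0.30 to 0.71 for Sox1/2/3, 0.10 to 0.53 for Neurog, 0.77 to 1.67 for Ebf and 0.30 to 0.53 for Delta.b. On the shrunken regularized log values the ranges were smaller, at 0.15 for Otx, 0.29 for Pax3/7, 0.31 for Sox1/2/3, 0.56 for Ebf and 0.20 for Delta.b. Each within-pair ratio stayed inside its counting interval under TMM, upper-quartile and total-read scaling. Depth limits Ebf most, with 94 reads in its lowest library.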
